A study of Mus musculus with 12 samples.

Results

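Genes of the major histocompatibility complex (MHC) class I pathway, 10 in all, were followed through whole bone marrow (BM) RNA-seq of mice that carried combinations of heterozygous leukemia alleles. They were chosen by their gene symbol as H2-K1, H2-D1, B2m, Tap1, Tap2, Tapbp, Psmb8, Psmb9, Psmb10 and Nlrc5. All 10 were among the 12199 genes in the table, and all 10 passed the filter on low values, which left 12175 genes. The question was whether each mutant genotype changed these transcripts against wild type (WT), and whether the mutant genotypes differed from each other.

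All animals were C57BL/6 mice. By the study's methods, WT mice were obtained from a core facility and the mutants were bred by crosses. Mouse source and mutant genotype therefore cannot be told apart. DF mice combined a floxed Dnmt3a allele and the MxCre transgene with an Flt3 ITD allele, each heterozygous. TF mice combined germline heterozygous loss of Tet2 with the same Flt3 ITD allele, and TFD mice carried all of these lesions together. Every mouse, WT included, received poly(I:C) at 8 to 10 weeks of age and was analyzed 8 to 9 weeks later. Mx1 promoter-driven Cre is known to respond to poly(I:C) in blood cells and in some other tissues. Poly(I:C) also induces type I interferon, an inducer of the genes studied here. WT and mutant mice shared the treatment, and whether they responded to it equally was not tested. The RNA was total RNA depleted of globin transcripts, from 3 WT, 3 DF, 3 TF and 2 TFD mice.

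MHC class I molecules display peptides from inside the cell to CD8+ T cells and are recognized by natural killer (NK) cells. The immunoproteasome, in which inducible catalytic subunits take the place of the constitutive ones, cuts cellular proteins into such peptides. The TAP transporter carries the peptides into the endoplasmic reticulum, where tapasin helps to load them onto a heavy chain paired with beta-2-microglobulin. NLRC5 is a transcriptional coactivator of these genes, and interferon gamma is their best known inducer. Blood cells express the class I pathway broadly.

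Counts per library ranged from 8274153 to 15900904. The first multidimensional scaling axis ran from -2.12 to -1.87 in WT and from 0.59 to 1.33 in 7 mutant libraries, and TF replicate 3 stood between them at -0.67. The pair of TFD libraries differed more from each other than any other pair of one genotype, with a chi-square per gene of 65.4 against 10.3 to 31.9. WT replicate 3, TF replicate 3 and TFD replicate 2 had at least 10000 Xist reads, and the other 8 libraries had fewer. The labels name mononuclear cells, and the libraries also held neutrophil transcripts, with 8 markers that summed to 21850.5 to 78906 CPM. The CPM of Tet2 was 148 to 169 in WT and 136 to 205 in TF, and that of Dnmt3a was 30.9 to 57.8 in WT and 38.0 to 46.4 in DF. The TFD libraries had 163 and 209 CPM of Tet2 and 54.4 and 58.6 CPM of Dnmt3a. In the genotypes without a lesion in that gene, the log2 fold change against WT was 0.49 for Tet2 in DF (edgeR adjusted p = 0.0261) and 0.58 for Dnmt3a in TF (0.0444), and both calls were lost under alternatives. That of Tet2 was lost with library totals and without WT replicate 1 or 3 or DF replicate 2 or 3 (adjusted p up to 0.112), and that of Dnmt3a when any 1 of 8 libraries was left out (up to 0.149), that is each library except WT replicate 3, TF replicate 2 and TFD replicate 1. These counts include exons outside the deleted parts and therefore did not check the genotype labels. Flt3, whose ITD allele keeps its transcript, was at 20.8 to 30.05 CPM in WT, 33.0 to 59.2 in DF, 55.4 to 71.3 in TF and 58.9 and 130.4 in TFD, above WT in every mutant library. It rose by 0.93 for DF, 1.38 for TF and 1.94 for TFD on the log2 scale (edgeR adjusted p = 0.0185, 0.00230 and 0.000552). The TFD value was 1.27 without TFD replicate 2 (0.00738), and the call in DF was lost without WT replicate 2 or 3 or DF replicate 1 (0.0632, 0.0836 and 0.0936).

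Of the 10 genes, 7 lie on mouse chromosome 17, among them Psmb9 (chr17:34182099-34187330), Tap1 (chr17:34187556-34197225), Psmb8 (chr17:34198195-34201454) and Tap2 (chr17:34204479-34216321), which follow each other within the MHC. Tapbp lies at chr17:33919478-33929290, H2-K1 at chr17:33996012-34000333 and H2-D1 at chr17:35263094-35267497. B2m is on chromosome 2 (chr2:122147687-122153082), and Psmb10 (chr8:105935728-105938392) and Nlrc5 (chr8:94472763-94527272) are on chromosome 8. All coordinates are those of mm10 in the deposited table. H2-K1 and H2-D1 belong to a family of near copies, and 9.63% and 12.8% of their 50-base stretches also occur in transcripts of other genes, so their counts may hold or lack reads of their relatives. In GENCODE M21, Tapbp exons overlap the antisense gene Gm19412 over 24.9% of their bases. Psmb8 exons overlap Gm20496 over 14.7% and Tap2 exons overlap Gm15821 over 14.1%. Tap1 and Psmb9 exons overlap each other on opposite strands there, over 3.87% and 5.79% of their bases. Whether the counting used strand is not given in the sources used here.

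The promoters of H2-K1 and B2m are shown because they carry the regulatory letters of the class I genes. Those of Psmb8, Psmb9 and Tap1 are shown because their transcripts rose in every mutant genotype. RefSeq windows (GRCm38.p6) were matched by symbol for 8 of the 10 genes. Tap2 and Nlrc5 had none. Sequences are 5' to 3' on the strand of the gene, except that the stretch between Psmb9 and Tap1 is on the plus strand. In the H2-K1 sequence (chr17:34000334-34000583, minus strand) the capitals mark an NF-kB element (GGGNNTTNCC) and then the letters TGACG and ATTGG, 20 bases apart, which are the X2 and Y boxes of class I promoters. In the B2m sequence (chr2:122147437-122147686, plus strand) they mark an interferon regulatory factor (IRF) element (GAAANNGAAA), an NF-kB element on the other strand, and the same pair of boxes. In the Psmb8 sequence (chr17:34197945-34198194, plus strand) they mark a GAS element (TTCNNNGAA), a kind of interferon-responsive site. In the 225 bases that separate the RefSeq starts of Psmb9 and Tap1 (chr17:34187331-34187555), which are transcribed away from each other, they mark a CCAAT box.
H2-K1: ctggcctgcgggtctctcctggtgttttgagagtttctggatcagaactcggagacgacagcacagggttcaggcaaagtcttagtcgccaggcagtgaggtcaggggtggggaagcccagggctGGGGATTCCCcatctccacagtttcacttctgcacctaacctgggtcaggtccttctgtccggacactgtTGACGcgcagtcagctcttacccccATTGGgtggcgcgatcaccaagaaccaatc
B2m: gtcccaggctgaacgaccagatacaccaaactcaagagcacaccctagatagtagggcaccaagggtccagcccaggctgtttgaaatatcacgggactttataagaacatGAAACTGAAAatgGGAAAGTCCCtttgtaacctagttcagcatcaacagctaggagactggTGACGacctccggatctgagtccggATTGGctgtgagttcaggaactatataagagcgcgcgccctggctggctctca
Psmb8: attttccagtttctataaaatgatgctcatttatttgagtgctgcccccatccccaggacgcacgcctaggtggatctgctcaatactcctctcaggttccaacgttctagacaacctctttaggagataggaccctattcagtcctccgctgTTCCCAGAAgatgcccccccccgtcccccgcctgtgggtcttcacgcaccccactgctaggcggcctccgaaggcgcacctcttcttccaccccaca
Psmb9-Tap1: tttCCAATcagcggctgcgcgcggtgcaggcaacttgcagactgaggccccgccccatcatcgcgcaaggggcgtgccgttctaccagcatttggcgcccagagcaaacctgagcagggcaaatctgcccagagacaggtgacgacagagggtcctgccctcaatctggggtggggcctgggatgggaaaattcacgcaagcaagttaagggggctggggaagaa

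Motifs were searched on both strands of the 250 bases before each start. The pair of boxes at this spacing was present for H2-K1, H2-D1 and B2m but for no other of the 8 genes with a window, and it was found in 30 of 32851 RefSeq windows (0.0913%). The H2-D1 window also held the NF-kB element. A shorter IRF motif (AANNGAAA) was searched as well and was present for H2-K1, H2-D1 and B2m. In H2-K1 and H2-D1 it read TTTCACTT on the other strand, 104 to 97 and 150 to 143 bases before the start. It is not in capitals in the H2-K1 sequence above, and in B2m it lies within the IRF element. Of all windows, 2.98% held the IRF element, 21.3% the shorter IRF motif, 4.11% the NF-kB element, 7.02% the GAS element and 33.8% a CCAAT box. The CCAAT letters are those of the Y box on the other strand, so these matches overlap. A match says only that the letters are there.

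Per kilobase of exon, the WT levels spanned a wide range. The mean CPM per kilobase in WT was 720.8 ± 76.0 (SD, n = 3) for B2m, 249.5 ± 37.0 for H2-K1 and 115.4 ± 25.4 for H2-D1. It was 58.5 ± 6.57 for Psmb8, 42.8 ± 2.33 for Tapbp, 31.9 ± 5.05 for Psmb9 and 27.2 ± 2.83 for Psmb10. The lowest were Tap1 at 24.01 ± 2.78, Tap2 at 19.0 ± 2.46 and the coactivator Nlrc5 at 9.62 ± 0.889. In this order the WT libraries of Psmb9 and Psmb10 overlapped, as did those of Psmb10 and Tap1 and those of Tap1 and Tap2, and the other neighbors did not overlap.

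In DF, the inducible catalytic subunits and both chains of the TAP transporter rose, by 1.32- to 1.83-fold. In TF, all genes but Nlrc5 rose, by 1.42- to 2.15-fold. In TFD, the catalytic subunits, the transporter and tapasin rose, by 1.36- to 1.79-fold, while the class I chains did not pass the test. Thus 5 of the 10 genes were called higher in DF, where 21% of all genes tested were called higher, 9 in TF (19% of all genes) and 6 in TFD (14.7% of all genes), by edgeR's quasi-likelihood test with Benjamini-Hochberg adjusted p under 0.05. None was called lower, with 0 at an unadjusted p under 0.05 and 0 by DESeq2 in each comparison, where 16.6%, 15.6% and 11.6% of all genes were called lower. The median log2 fold change over the 10 genes was 0.43 in DF, 0.66 in TF and 0.47 in TFD, beside 0.05, 0.02 and 0.01 over all genes tested. In DF, 7 of the 10 genes had every library above WT (28.9% of all genes) and 1 had every library below WT (22.4% of all genes). In TF 9 of the 10 lay above WT (26.1% of all genes) and in TFD 6 (26% of all genes). The 3 comparisons share the WT libraries.

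**Figure D1:**
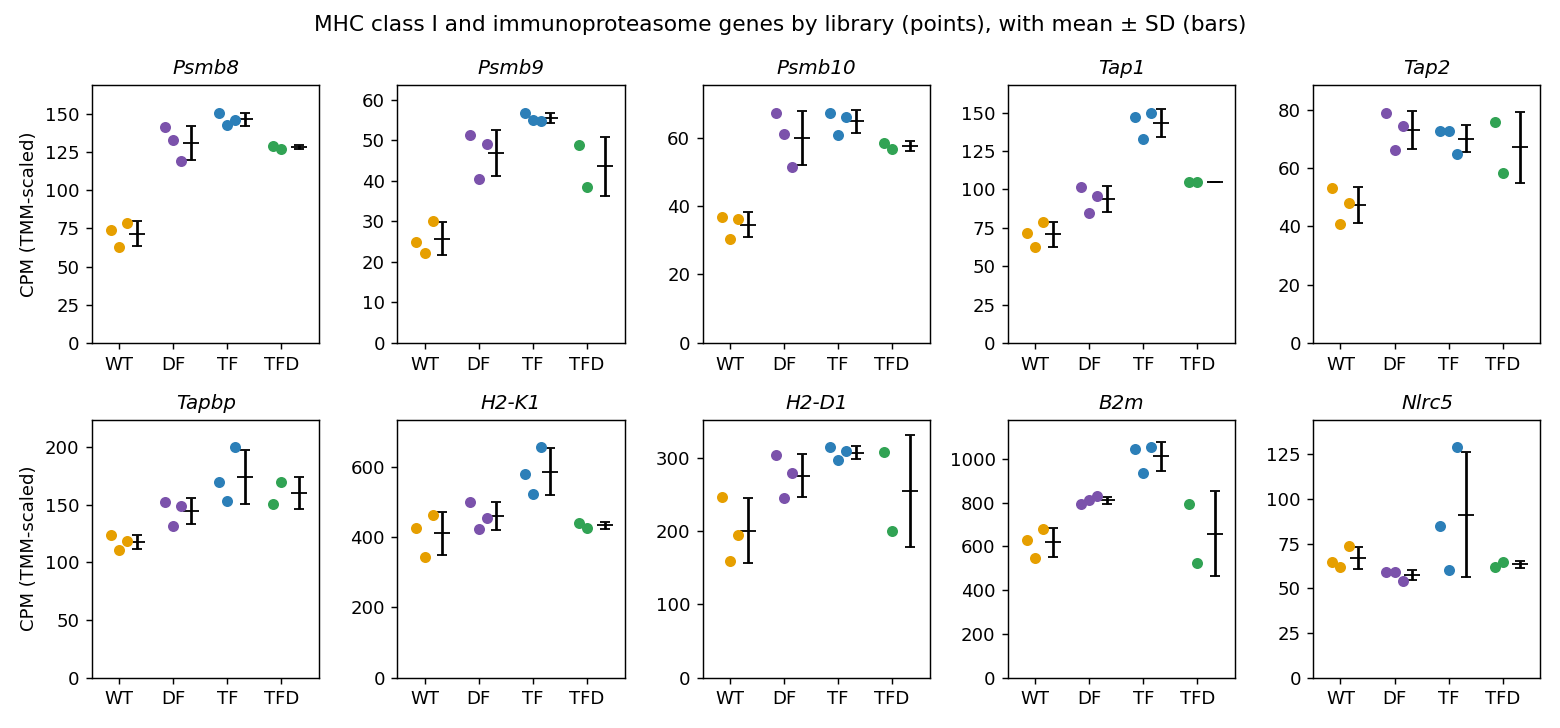
CPM scaled by TMM factors (vertical axes, from 0) of each gene in each library (points), by genotype, with bars for mean ± SD (n = 3, and n = 2 for TFD). Every mutant library lies above every WT library for Psmb8, Psmb9, Psmb10, Tap1, Tap2 and Tapbp, and TF replicate 3 reaches the highest Nlrc5 level at 129 CPM.

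Psmb8 encodes the inducible counterpart of the constitutive subunit Psmb5. Its CPM was 73.7, 62.6 and 78.2 in WT mice, 141, 133 and 119 in DF mice, 151, 143 and 146 in TF mice and 129 and 127 in TFD mice. All 8 mutant libraries were above all 3 WT libraries. The rise was 0.87 ± 0.11 (log2 fold change ± SE) in DF, 1.03 ± 0.11 in TF and 0.84 ± 0.12 in TFD, with edgeR adjusted p of 6.30e-05, 2.50e-05 and 0.000260. The CPM of Psmb9, the inducible counterpart of Psmb6, was 24.9, 22.1 and 30.2 in WT mice, 51.3, 40.5 and 49.1 in DF mice, 56.9, 55.1 and 54.7 in TF mice and 48.8 and 38.4 in TFD mice. Again no mutant library overlapped with WT. Psmb9 had the largest rise among the 10 genes in TF, at 1.11 ± 0.14 (adjusted p = 0.000108), and rose by 0.86 ± 0.14 in DF (0.000495) and 0.76 ± 0.15 in TFD (0.00315). Psmb10, the inducible counterpart of Psmb7, had 36.9, 30.4 and 36.3 CPM in WT mice, 67.2, 61.1 and 51.4 in DF mice, 67.3, 60.8 and 66.03 in TF mice and 58.6 and 56.6 in TFD mice. Its groups did not overlap with WT either, and its log2 fold changes were 0.79 ± 0.12, 0.90 ± 0.12 and 0.73 ± 0.13, with edgeR adjusted p of 0.000301, 0.000152 and 0.00149, for DF, TF and TFD in this order. Of all genes tested, 16.1% had every mutant library above every WT library, as did 6 of the 10 genes.

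**Figure D2:**
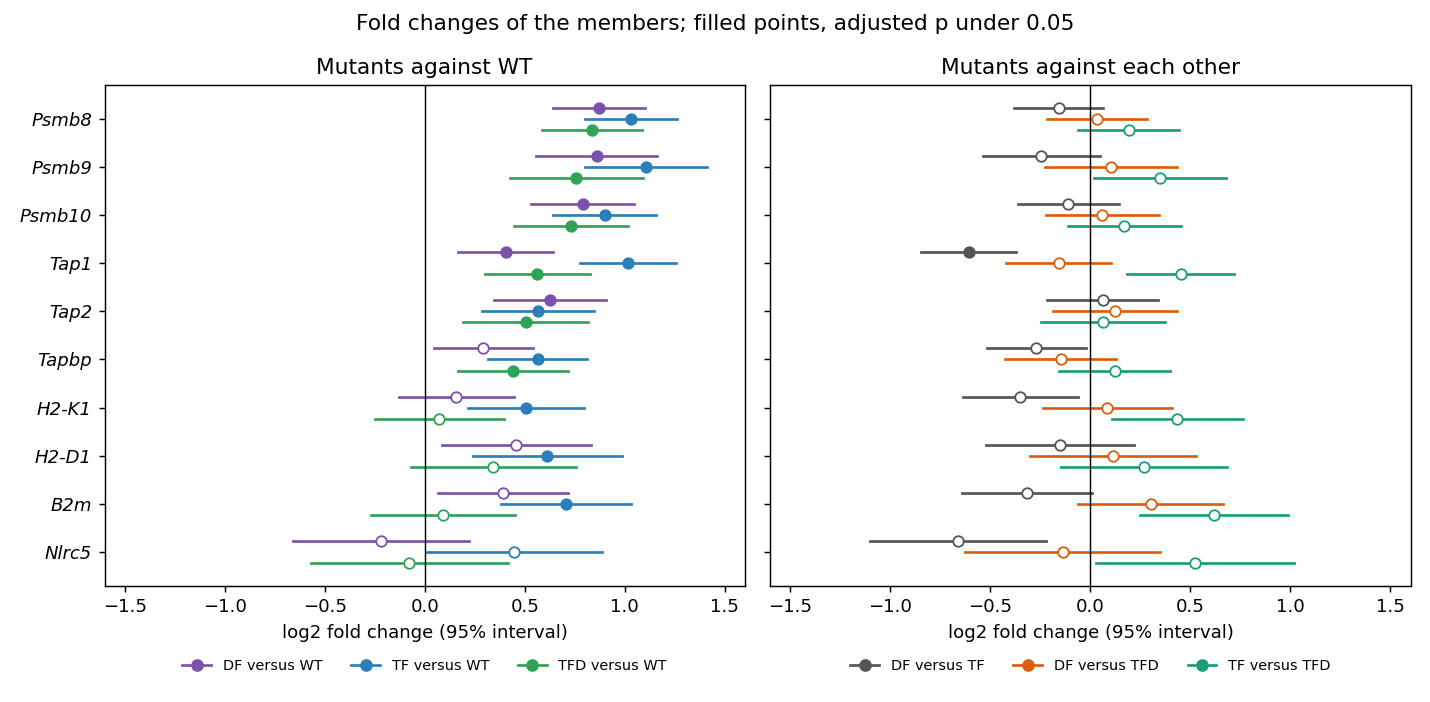
Log2 fold changes (horizontal axes) of the 10 genes with 95% intervals from edgeR, for mutants against WT (left) and mutants against each other (right), and filled points mark an adjusted p under 0.05. The 3 inducible subunits lie between 0.73 and 1.11 in all mutants against WT, and on the right Tap1 in DF versus TF, at -0.61, is the single filled point.

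The constitutive subunits that these 3 replace did not follow them to the same extent. The log2 fold change of Psmb5 was 0.33 in DF, -0.22 in TF and -0.14 in TFD, and that of Psmb7 was -0.019, -0.089 and -0.28, none of them called by edgeR. The rise of Psmb6 passed the test in DF (0.42, adjusted p = 0.0215) and TF (0.40, 0.0302) but not in TFD (0.19, 0.346). The call in DF was lost with library totals (0.33, 0.0801) and that in TF without TF replicate 3 (0.39, 0.0541). The ratio of the inducible to the constitutive transcript within a library does not depend on scaling. Psmb8 over Psmb5, in counts per kilobase, was 1.495 to 1.79 in WT and 2.23 to 4.17 in the mutants. Psmb9 over Psmb6 was 0.492 to 0.557 in WT and 0.587 to 0.913 in the mutants. Psmb10 over Psmb7 was 0.216 to 0.304 in WT and 0.423 to 0.586 in the mutants. All 8 mutant libraries exceeded all 3 WT libraries in each ratio, and the geometric mean of the mutants was 1.90-, 1.501- and 1.91-fold that of WT. A two-sided exact permutation test over libraries, with 165 arrangements, gave p = 0.0121 for each ratio, the smallest it can give, and 0.0121 after adjustment over the 3 ratios.

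**Figure D3:**
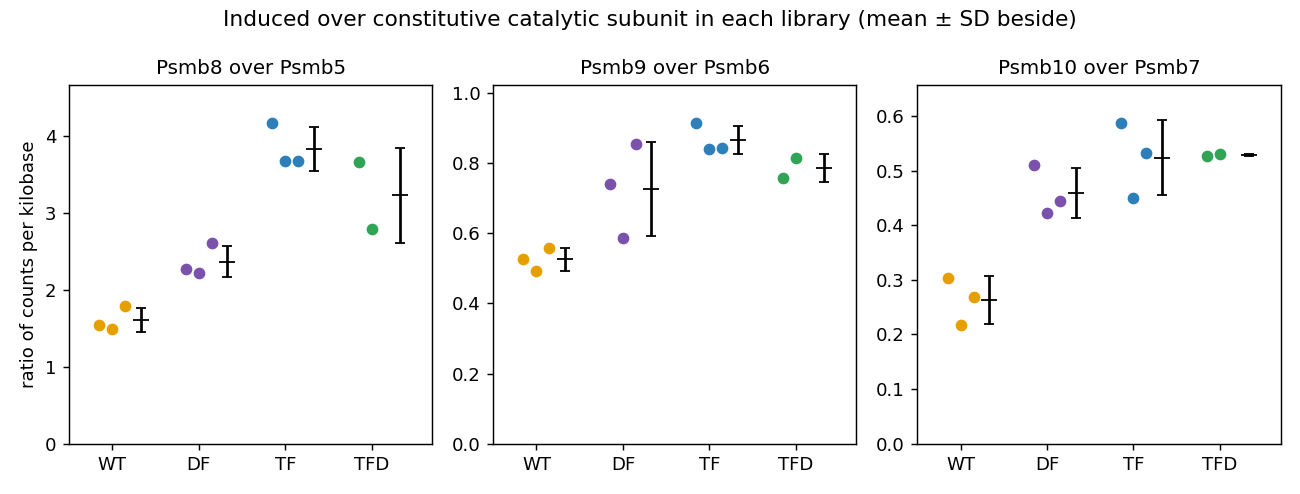
Ratio of counts per kilobase of each inducible catalytic subunit over the constitutive subunit it replaces (vertical axes, from 0), per library (points) by genotype, with mean ± SD. The mean of Psmb8 over Psmb5 was 1.61 for WT, 2.37 for DF, 3.84 for TF and 3.23 for TFD.

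Of the 16 other core subunits and assembly factors of the 20S proteasome, 8 were called higher in DF, 7 in TF and 1 in TFD, and none was called lower. They included Psma7, a structural subunit, with log2 fold changes of 0.74, 0.76 and 0.49, and the assembly factors Psmg4 (0.69 in DF and 0.81 in TF) and Pomp (0.48 and 0.61). These counts were sensitive, since library totals in place of TMM factors left 3 in DF and omission of TF replicate 3 left 4 in TF. Among the 4 proteasome activators, Psme1 and Psme2, the partners of the interferon-inducible activator ring, rose in all mutants, by 0.61, 0.69 and 0.44 and by 0.60, 0.996 and 0.48. Psme3, a nuclear activator, fell by 0.40 in DF and by 0.37 in TF, and Psme4 fell by 0.44 in TF and by 0.40 in TFD, where the call was lost without TFD replicate 2 (adjusted p = 0.0502).

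Tap1, a chain of the peptide transporter, was highest in TF. Its CPM was 71.4, 62.4 and 78.7 in WT mice, 102, 85.0 and 95.4 in DF mice, 147, 133 and 150.1 in TF mice and 105 and 105 in TFD mice. The TF libraries lay above all others, and the DF and TFD libraries lay between WT and TF. The edgeR test gave Tap1 a rise of 0.41 ± 0.11 in DF (adjusted p = 0.0120), of 1.01 ± 0.11 in TF (3.83e-05) and of 0.56 ± 0.12 in TFD (0.00467). The call in DF was lost without WT replicate 2 (0.32, adjusted p = 0.0545) and without DF replicate 1 (0.33, 0.0680). Tap2, its partner, had 53.0, 40.8 and 47.9 CPM in WT mice, 79.1, 66.2 and 74.3 in DF mice, 72.9, 72.6 and 64.9 in TF mice and 75.8 and 58.5 in TFD mice. Unlike Tap1, its levels overlapped among the mutants, and all of them were above WT. Its rise was 0.63 ± 0.13 in DF (edgeR adjusted p = 0.00254), 0.57 ± 0.13 in TF (0.00518) and 0.50 ± 0.14 in TFD (0.0207). In TFD the call was lost without WT replicate 2 (0.41, 0.0736) and without TFD replicate 1 (0.30, 0.223), where the 1 TFD library left is assumed to vary like the other genotypes.

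Tapbp encodes tapasin, the bridge between the transporter and the empty class I molecule. Its CPM was 124, 111 and 118 in WT mice, 152, 132 and 149 in DF mice, 170, 153 and 199.7 in TF mice and 150.2 and 170 in TFD mice. Every mutant library exceeded WT by this measure. The edgeR test called it in TF (0.56 ± 0.12, adjusted p = 0.00258) and TFD (0.44 ± 0.13, 0.0215), and DF had 0.29 with a 95% interval of 0.05 to 0.54 (0.0603). The TFD call was lost without WT replicate 2 (0.40, 0.0689) and without TFD replicate 2 (0.36, 0.124), a fit that again holds 1 TFD library. In DF it passed without TF replicate 3 (0.29, 0.0429) and with a term for Xist reads (0.35, 0.0266). Of 10 other peptide trimming and loading genes, 3 were called higher in DF, 3 in TF and 2 in TFD, and 1 was called lower in each. The tapasin-related editor Tapbpl rose by 0.55, 0.57 and 0.42 (in TFD lost without TFD replicate 2, adjusted p = 0.0622), and the trimming peptidase Erap1 rose by 0.42 in DF and 0.32 in TF. The chaperone Hspa5 fell by 0.61, 0.73 and 0.61 in DF, TF and TFD.

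The class I chains, the most abundant of these transcripts per kilobase, passed the test in TF. H2-K1, a classical heavy chain, had 426, 343 and 462 CPM in WT mice, 499.7, 422 and 455 in DF mice, 578, 521 and 655 in TF mice and 439 and 426 in TFD mice. The TF libraries lay above WT, DF and TFD, and those of DF and TFD overlapped with WT. Its log2 fold change was 0.51 ± 0.13 in TF (edgeR adjusted p = 0.0110), 0.16 in DF (95% interval -0.13 to 0.45, 0.369) and 0.074 in TFD (-0.25 to 0.40, 0.755). The call in TF was lost without WT replicate 2 (0.40, 0.0505). H2-D1, the other classical heavy chain here, had 247, 159.6 and 194 CPM in WT mice, 303, 245 and 279 in DF mice, 314, 297 and 309 in TF mice and 308 and 201 in TFD mice. WT replicate 1 reached the lowest DF library, and the TFD pair spanned the range from WT to TF. H2-D1 rose in TF by 0.61 ± 0.17 (adjusted p = 0.0156), lost without WT replicate 2 (0.47, 0.0712) or WT replicate 3 (0.58, 0.0539). It had 0.46 in DF (0.09 to 0.83, 0.0516) and 0.34 in TFD (-0.07 to 0.76, 0.206), and the latter passed without TFD replicate 2 (0.63, 0.0427). That fit again holds 1 TFD library.

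B2m encodes beta-2-microglobulin, the light chain of all these molecules. Its CPM was 627, 549 and 679 in WT mice, 796, 810.4 and 829 in DF mice, 1044, 937 and 1053 in TF mice and 795 and 523 in TFD mice. All DF and TF libraries were above WT, with TF highest, while TFD replicate 2 was the lowest of all 11. B2m rose by 0.71 ± 0.15 in TF (edgeR adjusted p = 0.00324). It had 0.39 in DF (0.07 to 0.72, 0.0556) and 0.091 in TFD (-0.27 to 0.45, 0.730). In DF, B2m and H2-D1 were near the threshold, and both passed it with only the compared genotypes in the fit (0.0433 and 0.0440) or with limma (0.0494 and 0.0419). With DESeq2, B2m passed (0.0447). Both genes also passed without TFD replicate 1 (0.0160 and 0.0233) or TFD replicate 2 (0.0204 and 0.0316), and H2-D1 passed without WT replicate 1 (0.60, 0.0208).

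Of 25 further class I and class I-like genes, 12 were in the table. Of these, 3 were called higher and 3 lower in DF, and 4 higher and none lower in both TF and TFD. Fcgrt, the neonatal Fc receptor heavy chain, rose by 1.45, 2.25 and 2.06 in DF, TF and TFD. The nonclassical chains H2-T23, which presents leader peptides to NK cells, and H2-M3, which presents formylated peptides, rose by 0.92 and 0.99 in TF and by 0.56 and 0.62 in TFD. Without TFD replicate 2 the call of H2-M3 in TFD was lost (adjusted p = 0.0502). In DF they had 0.39 (adjusted p = 0.0343, or 0.0940 with library totals) and 0.36 (0.0685). The H2-M3 promoter also held the pair of boxes shown above for H2-K1 and B2m.

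Nlrc5, the coactivator, did not pass the test in any mutant genotype. Its CPM was 64.9, 61.9 and 73.7 in WT mice, 59.1, 59.3 and 54.2 in DF mice, 84.5, 60.3 and 129 in TF mice and 61.99 and 64.9 in TFD mice. All DF libraries lay below WT, TFD stayed within the WT range, and the TF libraries ranged from below WT to the highest level of all. The log2 fold change was -0.22 in DF (95% interval -0.66 to 0.22, edgeR adjusted p = 0.423), 0.45 in TF (0.01 to 0.88, 0.105) and -0.077 in TFD (-0.57 to 0.41, 0.837). The TF value rested on single libraries, at 0.67 without TF replicate 2 (0.00841) and 0.11 without TF replicate 3 (0.567).

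Across the 11 libraries, which span all 4 genotypes, so that differences between genotypes enter each correlation, the log2 CPM of the 3 inducible subunits was closely related, with Pearson's r of 0.96 for Psmb8 and Psmb9, 0.99 for Psmb8 and Psmb10 and 0.93 for Psmb9 and Psmb10. For Nlrc5 and the other 9 genes, r ranged from -0.06 with Tap2 to 0.72 with H2-K1, and it was 0.21 with Psmb8. The genes most like Nlrc5 in pattern were Parp12 (r = 0.95), Sdc3 (0.93), Phf11b (0.91), Klrd1 (0.91) and Lgals3bp (0.90). Those most like the mean of the 10 genes were Tuba1a, Rgs10 and Ubac2 (0.97 each), and Psme2 and Trex1 (0.96 each).

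Among 15 transcription regulators of the class I genes, 2 were called higher in each mutant genotype, and 5, 3 and 2 were called lower in DF, TF and TFD. Irf8, a factor of monocytes and dendritic cells, rose by 1.31, 1.71 and 1.43, and Nfkb1, an NF-kB subunit, rose by 0.51, 0.83 and 0.79. Irf1, an interferon-inducible activator of class I genes, fell by 0.49 in DF and by 0.59 in TFD and had -0.02 in TF (adjusted p = 0.888). Its call in TFD was lost without TFD replicate 2 (0.0509). Irf2 fell by 0.80 in DF. Of 12 genes of interferon signalling, 4, 6 and 3 were called higher and 3, 1 and 2 lower. With library totals 4 were lower in DF and 1 in TFD. The receptor chain Ifnar2 rose by 0.71, 0.81 and 0.69 and the kinase Tyk2 by 0.72, 0.73 and 0.98. The feedback inhibitor Socs1 fell by 1.03 in TFD, a call lost without TFD replicate 2 (adjusted p = 0.171) and with library totals (0.0529).

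Genes known as interferon-stimulated were examined beside the 10 genes. Of 20 such genes, 2 were called higher and 11 lower in DF, with a median log2 fold change of -1.02, while 5 of the 10 genes above were higher there. In TF 8 were called higher and none lower, with a median of 0.59, and without TF replicate 3 the count was 5 and the median 0.23. In TFD 3 were called higher and none lower, with a median of -0.32, and 1 was called lower with DESeq2 and 2 without TF replicate 3. The antiviral genes Oas2, Rsad2 and Ifit3 fell by 2.70, 2.35 and 2.35 in DF. In TF they had 0.15 (adjusted p = 0.769), 0.26 (0.565) and 1.17 (0.0744), and in TFD -1.04 (0.0819), -0.80 (0.145) and -0.57 (0.491). The summed CPM of the 20 genes was 352 to 466 in WT mice, 318 to 341 in DF mice, 485 to 863 in TF mice and 403 to 511 in TFD mice, with TF replicate 3 highest.

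**Figure D4:**
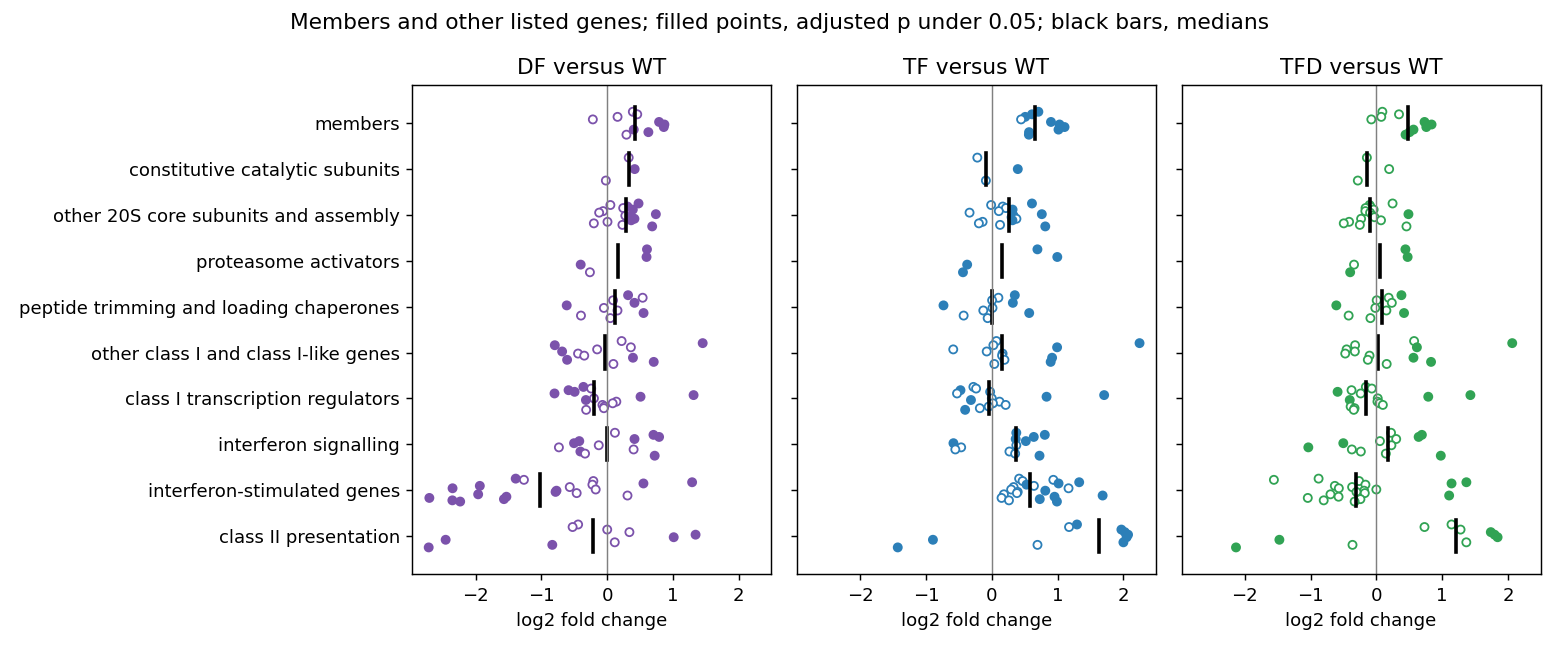
Log2 fold changes against WT (horizontal axes) of the 10 genes (members) and of the other gene lists, one point a gene, filled where the edgeR adjusted p was under 0.05, with black bars for medians. In DF the median of the 10 genes is 0.43 and that of the interferon-stimulated genes is -1.02.

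MHC class II presentation genes were compared as the sister pathway. Of 10, 2 were called higher and 3 lower in DF, 6 higher and 2 lower in TF, and 3 higher and 2 lower in TFD. The 3 became 5 without TF replicate 3 and 2 without TFD replicate 2. H2-Ob and H2-DMb2, which modulate peptide loading in B cells, fell in all mutants, by 2.71, 1.43 and 2.13 and by 2.45, 0.89 and 1.47. H2-DMa, a subunit of the peptide exchange factor, rose by 1.34, 2.07 and 1.80. Ciita, the class II counterpart of Nlrc5, had -0.52 in DF (adjusted p = 0.365), 1.18 in TF (0.0512) and 0.73 in TFD (0.283).

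Between the mutant genotypes, DF versus TF gave 1 call among the 10 genes. For Tap1 the log2 fold change was -0.61 ± 0.11, lower in DF (edgeR adjusted p = 0.00789), where 4.27% of all genes tested were called lower and 1.67% higher. No DF library reached a TF library, which held in this direction for 7 of the 10 genes and 12.1% of all genes. The call was lost without DF replicate 2 (-0.54, 0.0593). Nlrc5 had -0.66 (95% interval -1.10 to -0.22, 0.0777) and passed without TF replicate 2 (-0.89, 0.00541), with DESeq2 (0.0164) and with library totals (0.0476). H2-K1 had -0.35 (-0.64 to -0.06, 0.162) and passed with DESeq2 (0.0498). The inducible subunits were not called, and their intervals spanned both signs, at -0.16 for Psmb8 (-0.38 to 0.06), -0.25 for Psmb9 (-0.54 to 0.05) and -0.11 for Psmb10 (-0.36 to 0.14). Every DF library was nevertheless below every TF library for Psmb8 and Psmb9, while Psmb10 overlapped. None of the 10 genes was called higher in DF than in TF, with 0 at an unadjusted p under 0.05 and 0 by DESeq2. In the same comparison 16 of the 20 interferon-stimulated genes and all 10 class II genes were lower in DF, and without TF replicate 3 these counts were 11 and 3.

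For DF versus TFD, edgeR called 0 of the 10 genes, with 0 at an unadjusted p under 0.05 and 0 by DESeq2, and 0% of all genes in either direction, where 1727 genes had an unadjusted p under 0.05. DESeq2 called 103 genes higher and 155 lower. The log2 fold changes of the 10 genes ran from -0.16 for Tap1 (-0.42 to 0.10) to 0.30 for B2m (-0.06 to 0.66). For TF versus TFD, edgeR called 0.00821% of all genes in each direction. Of all 12175 genes, 1068 had an unadjusted p under 0.05, and DESeq2 called 109 higher. Among the 10 genes edgeR also called 0, with 5 at an unadjusted p under 0.05 and 1 by DESeq2. The largest difference was that of B2m, at 0.62 (0.25 to 0.99, edgeR adjusted p = 0.271), which DESeq2 called (0.0214) and which passed without TFD replicate 1 (0.95, 0.0301), where the 1 TFD library left has the lowest B2m level of all and the spread comes from the other genotypes. Tap1 had 0.45 (0.18 to 0.72, adjusted p = 0.271) and H2-K1 0.43 (0.11 to 0.76, 0.408). In 6 of the 10 genes every TF library lay above both TFD libraries, as in 12% of all genes.

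Summed cell type markers moved with genotype as well. The summed CPM of 8 B cell markers was 436 to 525 in WT and at most 76.9 in the mutants, and that of 9 monocyte and macrophage markers was 1639.6 to 1780.2 in WT and 4398 to 5626 in the mutants. Members of the list went both ways. In DF the mean CPM of Ccr2 rose from 280.4 to 1556 and that of F13a1 from 657 to 2135, while the macrophage genes C1qa and C1qb, named after their values were seen, fell from 16.7 to 3.30 and from 21.0 to 5.29. Dendritic cell markers summed to 104 to 109 in WT mice, 53.5 to 119 in DF mice, 179 to 431 in TF mice and 111 to 275 in TFD mice. This list includes Flt3, itself an engineered gene, so the sums partly carry its rise. Flt3 gave 33.0 of the 53.5 CPM in DF replicate 3 and 130.4 of the 275 CPM in TFD replicate 2. Of the 8 dendritic cell markers 2 were called higher, Flt3 among them, and 3 lower in DF. Without TF replicate 3 these counts were 4 and 3. Siglech and Ccr9, plasmacytoid markers also named after their values were seen, fell in DF from 39.96 to 0.504 and from 12.99 to 0.591 CPM. Stem and progenitor markers summed to 130.2 to 139 in WT and 166 to 282 in the mutants, so that every mutant library was above WT. Early granulocyte markers summed to 2813 to 2959 in WT mice, 4457 to 6109 in DF mice, 2615 to 4294 in TF mice and 3821 to 5505 in TFD mice. Neutrophil markers summed to 49108 to 61568 in WT and 21850.5 to 78906 in the mutants. T cell markers summed to 54.2 to 61.7 in WT mice, 29.2 to 43.95 in DF mice, 36.6 to 68.95 in TF mice and 29.0 to 36.7 in TFD mice. NK cell markers summed to 30.9 to 35.1 in WT and 10.6 to 48.6 in the mutants, and erythroid markers to 1385 to 1832 in WT and 292 to 1466 in the mutants. Megakaryocyte markers summed to 43.4 to 62.5 in WT and 24.99 to 116 in the mutants, and stroma and endothelium markers to 87.4 to 104.8 in WT and 81.1 to 129 in the mutants. The B cell, T cell, NK cell, dendritic cell, erythroid and stroma and endothelium sums of TF replicate 3 were the highest of the mutant libraries. No marker of these lists was at 0 in all libraries of a genotype. The part of cell makeup in the changes of the class I genes was not tested. In bulk RNA, more cells of a type and more RNA per cell cannot be told apart.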

How the data were processed

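Whole BM RNA of WT, DF, TF and TFD mice was sequenced, and 11 of the 12 labelled libraries were used, without TFD replicate 3, which was not analysed here. The authors used STAR for alignment (mm10) and featureCounts for counting of unique alignments, and they kept genes above 0.5 CPM in more than 3 samples. Tool versions are not given in the sources used here. The authors deposited raw counts, which were the basis of all tests, log2 CPM values, recovered from the counts to within 5e-09 with the cpm function of edgeR and a prior count of 0.25, and gene length in bases. Depth ranged from 8274153 to 15900904 counts per library, and with 2 or 3 mice per genotype the spread between mice limits the precision. Replicates are separate samples of genotyped mice.

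Of 12199 genes, 12175 were tested, those above 0.5 CPM in more than 3 libraries. EdgeR 4.0.16 in R 4.3.3 fitted 1 mean per genotype to all libraries with TMM factors (0.924 to 1.043) and tested with the quasi-likelihood F test. Benjamini-Hochberg adjustment ran over all genes of a comparison, with a threshold of 0.05. CPM values carry the TMM factors. Ratios of subunits were compared with an exact permutation test in scipy. The procedure was tested on simulated data. Alternatives were DESeq2 1.42.0, library totals, RLE factors, no filter, filterByExpr, only the genotypes compared, limma 3.58.1 on log2(CPM + 1), a replicate block, a term that marked the libraries with 10000 or more Xist reads, and each library left out in turn. Those for the gene lists and the targeted genes were added after the data were seen.

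The genes and the lists were chosen with earlier results of these data known. Named were all 10 genes, the 3 genes per list with the largest absolute log2 fold change among those called against WT, the constitutive subunits, the activators, Irf1, Irf2, Irf8 and Ciita, the 5 genes most like Nlrc5 or the mean of the 10, and the pair of markers per cell type with the highest mean log2 CPM, given only for monocytes and macrophages (Ccr2 and F13a1). A gene that this rule also selects is not reported here. Other genes named are the targeted genes, genes overlapping exons, and C1qa, C1qb, Siglech and Ccr9, chosen after their values were seen.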

Additional observations from a re-analysis of the deposited data

Results flagged for a closer look

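The effect of genotype on Tap1 differed between DF and TF by a direct test of that difference. The log2 fold change of DF versus TF was -0.61 (SE 0.11, edgeR adjusted p = 0.00789), with 3 of 3 DF libraries below every TF library.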

How the results depend on the processing

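The number of genes called higher among the 10 was 5 to 7 in DF, 9 in TF and 6 in TFD over the alternative settings, and 4 to 7, 7 to 10 and 4 to 6 with a library left out. None was called lower against WT in any of them. Genes called lower in DF versus TF numbered 3 with DESeq2 and 2 with library totals, and 0 to 2 with a library left out. Genes called higher in TF versus TFD numbered 1 with DESeq2, and 0 to 1 with a library left out. The cause of these changes was not tested. No change of the 10 genes called above reversed its sign in these settings. Among those not called, library totals turned Tap2 in DF versus TF to -0.027 and, in DF versus TFD, H2-K1 to -0.0094, Psmb8 to -0.059 and Psmb10 to -0.032, and the Xist term turned Nlrc5 in DF versus TFD to 0.055. With a library left out, TFD versus WT ranged from -0.24 to 0.37 for B2m, -0.00034 to 0.63 for H2-D1 and -0.039 to 0.17 for H2-K1. DF versus TFD ranged from -0.0026 to 0.63 for B2m, -0.19 to 0.46 for H2-D1, -0.049 to 0.13 for Psmb10, -0.042 to 0.065 for Psmb8, -0.089 to 0.29 for Psmb9 and -0.082 to 0.32 for Tap2. TF versus TFD ranged from -0.020 to 0.61 for H2-D1 and -0.12 to 0.26 for Tap2, and DF versus TF from -0.017 to 0.13 for Tap2. The filterByExpr setting kept all 12199 genes and equals no filter. Library totals moved the share of calls that were higher from 55.9% to 42.3% in DF versus WT and from 28.1% to 13.9% in DF versus TF. With 2 or 3 mice per genotype, some calls near the threshold changed with a single library left out. A lone TFD library is then assumed to vary like the other genotypes.

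The replicate numbers share only a number. Libraries of the same number had correlations of their deviations from -0.30 to 0.25, with 3 of 15 pairs over 0.1, beside 7 of 30 pairs of other numbers. With the replicate block, 7, 9 and 6 of the 10 genes were called higher in DF, TF and TFD versus WT, and none was lower. B2m (adjusted p = 0.0390) and H2-D1 (0.0102) were added in DF, and Nlrc5 in TFD turned to 0.040. In DF versus TF 1 was lower, and none was called between TFD and the other mutants.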
